A study of Drosophila melanogaster with 2 samples.

Results

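The small nuclear RNA (snRNA) genes were taken as all genes whose FlyBase symbol begins with "snRNA:" in the Ensembl release 115 annotation of the dm6 assembly, and 32 of 18164 annotated genes met this rule. They encode 12 RNA classes, with 7 genes for U5, 6 for U2, 5 for U1, 3 each for U4 and U6, 2 for 7SK, and 1 each for U7, U11, U12, U4atac, U6atac and LU. Of the 32 genes, 16 lie on chromosome arm 2L, 10 on 3R, 4 on 3L and 2 on X. Each gene was scored by the strongest CG2875 ChIP-seq peak with its summit within 500 bp of the gene start, in each of 4 deposited peak lists.

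The peaks came from a transgenic Drosophila melanogaster line that stably expresses CG2875 with green fluorescent protein (GFP) at its C-terminus, and chromatin was immunoprecipitated with an antibody against GFP. Whole embryos of mixed sex, 0 to 14 h old, were the starting material, so a peak is an average over all their cells and stages. The series holds a single group of 2 biological replicates, with no second genotype, treatment or time point. The sources used here do not give the promoter that drives the fusion gene, and a control alignment that both replicates share was not analysed here.

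The deposited lists comprise a peak list of either replicate alone, a pooled list made from both, and the authors' IDR list. IDR stands for irreproducible discovery rate, a measure of how far peak ranks recur between replicates. The IDR list held 4278 peaks, and these were the 4278 strongest of the pooled list. Being in the IDR list therefore does not show that a given peak was found in both replicates. The pooled list and both replicate lists each held 30000 peaks and are relaxed lists that include background. The signal value of a peak is the peak caller's own measure, as the authors deposited it, and was read within a list. Ranks, with 1 for the strongest peak, serve to set the equally long relaxed lists side by side. Read depth is unknown, and with 2 libraries of one group no difference between conditions could be tested.

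snRNAs are short, abundant non-coding RNAs that work as the cores of ribonucleoprotein particles. U1 recognises the 5' splice site and U2 the branch point, and U4, U5 and U6 join them as a preassembled particle to form the major spliceosome, in which U6 and U2 take part in catalysis. U11, U12, U4atac and U6atac fill the corresponding places in the minor spliceosome, U7 directs the 3' end processing of replication-dependent histone mRNAs, and 7SK sequesters the transcription elongation kinase P-TEFb. Most of these genes are transcribed by RNA polymerase II from promoters without a TATA box, while U6, U6atac and 7SK are transcribed by RNA polymerase III from promoters with one. Both kinds carry a proximal sequence element (PSE) upstream of the start, which is bound by the SNAP complex (SNAPc).

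The promoters of the genes with an IDR peak are shown first, with those of relatives that lacked one, because the element that defines an snRNA promoter was present in both. Each sequence is the 75 bases immediately upstream of the start, 5' to 3' in the direction of transcription, read from the RefSeq Release 6 (dm6) genome. Capitals mark the 8-base word AATTCCCA, a core of the PSE, or its variant AATTCTCA. The first 5 belong to the genes with an IDR peak. They lie at chr2L:13215764-13215838 on the plus strand (U2:34ABb), chr3R:7474997-7475071 on the minus strand (7SKa), chr2L:901655-901729 on the minus strand (U1:21D), chr3L:3090726-3090800 on the plus strand (U5:63BC) and chr3R:23859631-23859705 on the minus strand (U1:95Ca).
U2:34ABb: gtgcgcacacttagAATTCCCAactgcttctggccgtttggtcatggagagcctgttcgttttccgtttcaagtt
7SKa: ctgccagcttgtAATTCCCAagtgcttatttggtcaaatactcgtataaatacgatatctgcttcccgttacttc
U1:21D: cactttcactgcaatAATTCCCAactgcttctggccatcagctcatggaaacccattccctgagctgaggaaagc
U5:63BC: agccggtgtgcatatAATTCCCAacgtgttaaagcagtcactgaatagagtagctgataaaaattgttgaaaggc
U1:95Ca: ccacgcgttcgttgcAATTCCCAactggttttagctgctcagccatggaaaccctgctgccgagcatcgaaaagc

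The next 7 belong to relatives without an IDR peak, chosen to set U1 against U1, U2 against U2 and 7SK against 7SK, with 1 U6 gene. They lie at chr3R:4948097-4948171 on the minus strand (U1:82Eb), chr3R:23827795-23827869 on the plus strand (U1:95Cb), chr3R:23826259-23826333 on the plus strand (U1:95Cc), chr2L:13212117-13212191 on the minus strand (U2:34ABa), chr2L:13244562-13244636 on the minus strand (U2:34ABc), chr3R:24557140-24557214 on the plus strand (U6:96Ac) and chr3R:23432794-23432868 on the plus strand (7SKb). The 7SKb sequence has no capitals because neither word was found in it.
U1:82Eb: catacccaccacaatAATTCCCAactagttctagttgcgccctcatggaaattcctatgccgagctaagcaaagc
U1:95Cb: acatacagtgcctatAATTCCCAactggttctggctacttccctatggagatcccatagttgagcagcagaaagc
U1:95Cc: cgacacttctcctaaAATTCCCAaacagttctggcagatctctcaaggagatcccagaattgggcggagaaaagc
U2:34ABa: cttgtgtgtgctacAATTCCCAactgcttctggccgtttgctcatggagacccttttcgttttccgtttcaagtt
U2:34ABc: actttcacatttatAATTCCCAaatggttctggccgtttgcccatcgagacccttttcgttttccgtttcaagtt
U6:96Ac: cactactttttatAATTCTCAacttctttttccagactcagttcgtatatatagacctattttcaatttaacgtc
7SKb: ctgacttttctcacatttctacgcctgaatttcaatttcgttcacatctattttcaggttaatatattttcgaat

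The question put to the peak lists was which snRNA genes carried a CG2875 peak at their start. An IDR peak was found at 5 of the 32 genes (15.6%), beside 10.4% of all 18164 genes: U2:34ABb, 7SKa, U1:21D, U5:63BC and U1:95Ca. These 5 cover U1, U2 and U5 of the major spliceosome and 7SK, and no gene of the minor spliceosome or of U4, U6, U7 or LU was among them. By RNA polymerase, assigned from the RNA class in the gene name, 4 of the 26 genes of polymerase II had an IDR peak. Of the 6 of polymerase III, 1 had one. For comparison, the share was 11.8% of protein-coding genes, 6.55% of the 290 tRNA genes and 8.18% of the 269 snoRNA genes. This order did not hold in every list. tRNA genes were at 52.1% in the pooled list and 53.8% in replicate 2, close to the snRNA shares of 56.2% and 53.1%, and snoRNA genes were at 20.4% with IDR summits within 1000 bp, beside 18.8% of snRNA genes.

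In the relaxed pooled list 18 of 32 snRNA genes (56.2%) had a summit within 500 bp, beside 39.0% of all genes. In the replicate 1 list 15 of 32 (46.9%) did, beside 37.2% of all genes, and in the replicate 2 list 17 of 32 (53.1%), beside 40.4%. When each replicate list was cut to its strongest 4278 peaks, 6 snRNA genes (18.8%) were marked in replicate 1, beside 9.99% of all genes, and 5 (15.6%) in replicate 2, beside 10.7%. The gene added in replicate 1 was U4:39B. The members' shares were above the shares over all genes in each of these counts, and no test of the difference was made.

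The count of IDR peaks did not depend on the outer part of the window. Within 250 bp it was again 5, beside 7.54% of all genes, and within 1000 bp it was 6, beside 13.9%. The gene added at 1000 bp was U11, whose start lies 947 bp from the nearest IDR summit and 599 bp from the start of the coding gene Fie, in an intron of which U11 lies. The peaks were of middling to low strength for this list: when only the stronger 50% of IDR peaks were kept, U2:34ABb alone remained, 1 of 32 genes beside 5.55% of all genes.

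U2:34ABb, on 2L at 13215839 on the plus strand, had the strongest peak of the family, at chr2L:13215680-13216103. Its signal value was 189.1 in the IDR and pooled lists (pooled rank 2116), 68.86 in replicate 1 (rank 3042) and 114.6 in replicate 2 (rank 1853). The summit lay 53 bp downstream of the start in the pooled list, 54 bp in replicate 1 and 87 bp in replicate 2, each inside the 192 nt RNA. A weaker summit followed 252 bp downstream in the pooled list, with a signal value of 86.4, and 253 bp downstream in replicate 1. The nearest coding start is that of kek4, which lies 489 bp upstream on the opposite strand and was 542 bp from the summit.

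7SKa, on 3R at 7474996 on the minus strand, came next, with the peak at chr3R:7474600-7475023. Its signal value was 173 in the IDR and pooled lists (rank 2422), 83.43 in replicate 1 (rank 2273) and 107.6 in replicate 2 (rank 2097). The summit lay 184 bp downstream of the start in the pooled list and 190 bp in replicate 1. In replicate 2 the strongest summit was 307 bp downstream, and a weaker one with a signal value of 43.84 stood 99 bp downstream, so the replicates placed the maximum differently along the 444 nt gene. The nearest coding start, of CG1142, is 1215 bp away, and the start of tRNA:Val-CAC-2-4 is 979 bp away. The other gene named 7SK, 7SKb, lies in an intron of CG4374 and had no peak in any of the 4 lists. Its RNA was only 49.7% identical to that of 7SKa, and the 75 bases upstream were 52.4% identical.

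The U1 family held both marked and unmarked copies of the same RNA. U1:21D, on 2L at 901654 on the minus strand, had a signal value of 165.6 in the IDR and pooled lists (rank 2606), 76.54 in replicate 1 (rank 2576) and 95.31 in replicate 2 (rank 2567). Its summit lay 150 bp downstream of the start in the pooled list, 175 bp in replicate 1 and 186 bp in replicate 2, which places the pooled summit inside the 164 nt RNA and the other two past its end. A second, weaker summit lay upstream of the start in all 3 relaxed lists, at 49 bp in the pooled list, 40 bp in replicate 1 and 28 bp in replicate 2. The IDR interval was chr2L:901292-901715, and the nearest coding start, of Lsp1beta, is 3010 bp away.

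U1:95Ca, on 3R at 23859630 on the minus strand, had a signal value of 149.5 in the IDR and pooled lists (rank 3055), 77.23 in replicate 1 (rank 2534) and 87.05 in replicate 2 (rank 2978). It was the only one of the 5 with its IDR summit upstream, 23 bp before the start, in the interval chr3R:23859441-23859864. Replicate 2 placed the summit 13 bp upstream, whereas replicate 1 placed the strongest summit 127 bp downstream and a weaker one 72 bp upstream. No coding start lies nearer than that of Pli, at 30422 bp.

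Of the other U1 genes, U1:82Eb had a pooled signal value of 60.44 (rank 11213), with 28.54 in replicate 1 and 37.88 in replicate 2, which places it outside the IDR list. U1:95Cb and U1:95Cc, both in an intron of CG34355, had no peak in any list. The RNAs of U1:21D, U1:95Ca and U1:95Cb are identical over their length, and all pairs of U1 RNAs were 98.2% to 100% identical, while the 75 bases upstream of the start were 59.7% to 71.8% identical.

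U5:63BC, on 3L at 3090801 on the plus strand, had a signal value of 149.7 in the IDR and pooled lists (rank 3048), 64.78 in replicate 1 (rank 3331) and 89.43 in replicate 2 (rank 2850). The summit lay 81 bp downstream in the pooled list, 84 bp in replicate 1 and 106 bp in replicate 2, inside the 123 nt RNA. A weaker summit followed at 286 bp in the pooled list, 315 bp in replicate 1 and 340 bp in replicate 2. The IDR interval was chr3L:3090670-3091093, and the nearest coding start, of PAN3, is 8823 bp away.

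All 5 genes with an IDR peak also had a peak in both replicate lists, and their replicate ranks lay between 1853 and 3331 of 30000. Their peak in the pooled list was given in advance, since the IDR list is a part of the pooled list. For all 5 the snRNA start was the nearest start of any gene to the summit. Their median IDR signal value was 165.6, beside 198.1 over all genes with an IDR summit. In the pooled list the median over the 18 marked members was 69.12, beside 70.05 over all marked genes, so the marked snRNA genes had a lower median than all marked genes in the IDR list and a similar one in the pooled list.

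**Figure D1:**
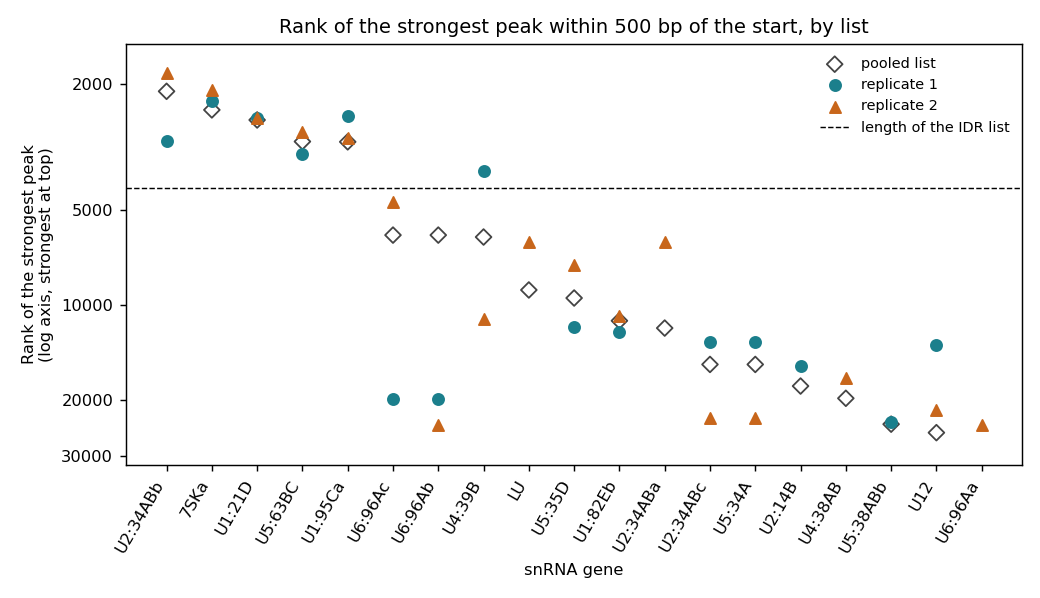
Rank of the strongest peak within 500 bp of each snRNA gene in the pooled, replicate 1 and replicate 2 lists (log axis, stronger peaks at the top), with the length of the IDR list as a dashed line. A gene has no point for a list in which it had no peak, and the 13 genes without a peak in any list are left out. The 5 genes with an IDR peak hold pooled ranks 2116 to 3055, and the next gene is at rank 6017.

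A gap in pooled rank lay between the members inside and outside the IDR list. The ranks were closer in replicate 1, with U5:63BC at 3331 and U4:39B, outside the IDR list, at 3763. The lowest IDR member had a pooled rank of 3055, and the next pooled peak, at rank 6017 with a signal value of 93.77, was shared by U6:96Ac and U6:96Ab, which lie in a row on 3R. Its summit lay 118 bp upstream of U6:96Ac and 405 bp downstream of U6:96Ab. The 2 replicates differed in this region. Replicate 2 had a signal value of 65.47 (rank 4715) 13 bp upstream of U6:96Ac, and replicate 1 had 21.48 (rank 19806) at 130 bp upstream. U6:96Aa had a peak in replicate 2 only, with a signal value of 22.67. U6 RNA forms the catalytic core of the spliceosome with U2, and the 3 copies encode identical RNAs.

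U4:39B, which encodes the RNA that pairs with U6 before activation, had a pooled signal value of 92.9 (rank 6102) with the summit 56 bp downstream. Replicate 1 gave 59.69 (rank 3763) at 51 bp downstream. In replicate 2 the summit near the start, at 56 bp downstream, had a signal value of 28.69, and the strongest summit, with 37.36 (rank 11084), was 315 bp upstream. The peak near the start was therefore present in both replicates but was stronger by rank in replicate 1. U4:38AB had 41.08 in the pooled list and 28.42 in replicate 2, with no peak in replicate 1, and U4:25F had none in any list.

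Among the U2 genes, U2:34ABa had a pooled signal value of 58.18 with its summit 199 bp downstream, nearer to the start of the coding gene CG15482, and a replicate 2 value of 54.19, with no replicate 1 peak. U2:14B, on X, had a pooled value of 43.68 and a replicate 1 value of 24.73, with no replicate 2 peak. U2:34ABc and the neighbouring U5:34A, whose starts are 287 bp apart, shared one pooled peak of 48.63, with 27.33 in replicate 1 and 23.43 in replicate 2. The summit lay 19 bp downstream of U2:34ABc and 306 bp upstream of U5:34A, so 18 members had a pooled peak but only 16 distinct pooled peaks were involved.

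Of the other U5 genes, U5:35D had a pooled value of 67.67 with the summit 422 bp downstream, which is nearer to a coding start, and values of 29.2 in replicate 1 and 48.18 in replicate 2 with summits on opposite sides of its start. U5:38ABb had 36.1 in the pooled list and 19.35 in replicate 1. LU, a nuclear RNA for which no function is stated here, had a pooled value of 70.56 and a replicate 2 value of 54.18 with the summits 17 and 21 bp downstream of its start, and no replicate 1 peak. U12 was the only minor spliceosome gene with a peak in any list. Its values were 34.6 in the pooled list, 26.98 in replicate 1 and 24.34 in replicate 2.

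The remaining 13 genes had no peak in any of the 4 lists. They are 7SKb, U11, U1:95Cb, U1:95Cc, U2:38ABa, U2:38ABb, U4:25F, U4atac, U5:14B, U5:23D, U5:38ABa, U6atac and U7. In a list that is limited to 30000 peaks, this says only that no stronger peak lay there.

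Between the replicates, 13 members had a peak in both. For 7 of these 13 the replicate peaks overlapped reciprocally by at least 50%, and for 3 of 13 the summits lay within 50 bp of each other. These 3 were U1:21D, at 11 bp, U5:63BC, at 22 bp, and U2:34ABb, at 33 bp, all with an IDR peak. The replicates placed the strongest summit on opposite sides of the start at U12, U1:95Ca, U2:34ABc, U4:39B, U5:35D and U6:96Ab. At U12 it was 130 bp downstream in replicate 1 and 202 bp upstream in replicate 2. At U1:95Ca, which had an IDR peak, it was 127 bp downstream in replicate 1 and 13 bp upstream in replicate 2. Of the other pooled members, 2 had a peak in replicate 1 only and 3 in replicate 2 only.

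The summits of snRNA genes lay mostly downstream of the start, and those of all marked genes mostly upstream. The shares are descriptions with no test. Of the 5 IDR summits 4 (80.0%) lay downstream of the start, beside 24.9% of the 1883 genes with an IDR summit within 500 bp, for which the median summit was 121 bp upstream. In the pooled list 15 of 18 (83.3%) lay downstream, beside 36.8% of 7077 genes. The snRNA start was the nearest start to the summit for 14 of these 18. At U2:34ABa, U5:35D and U6:96Ab the downstream summit was nearer to the start of another gene. In replicate 1 it was 11 of 15 (73.3%), beside 36.3% of all genes, and in replicate 2 it was 11 of 17 (64.7%), beside 37.4%. The median summit of the marked members was 81 bp downstream in the IDR list, 85.5 bp in the pooled list, 84 bp in replicate 1 and 87 bp in replicate 2.

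snRNA genes are short, and short genes as a whole had more downstream summits. Among genes of at most 500 bp, 46.5% of 142 IDR summits and 47.8% of 720 pooled summits lay downstream, between the shares of all genes and of the snRNA genes. For such short genes the share was 48.5% in replicate 1 and 48.0% in replicate 2. Of the members' summits, 4 of 5 in the IDR list and 10 of 18 in the pooled list fell inside the RNA-coding sequence. The peak interval covered the start itself for 5 of 5 IDR peaks and 14 of 18 pooled peaks. With intervals of 424 bp and sheared fragments of 200 to 800 bp, a summit does not place a contact to within the length of an snRNA gene.

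**Figure D2:**
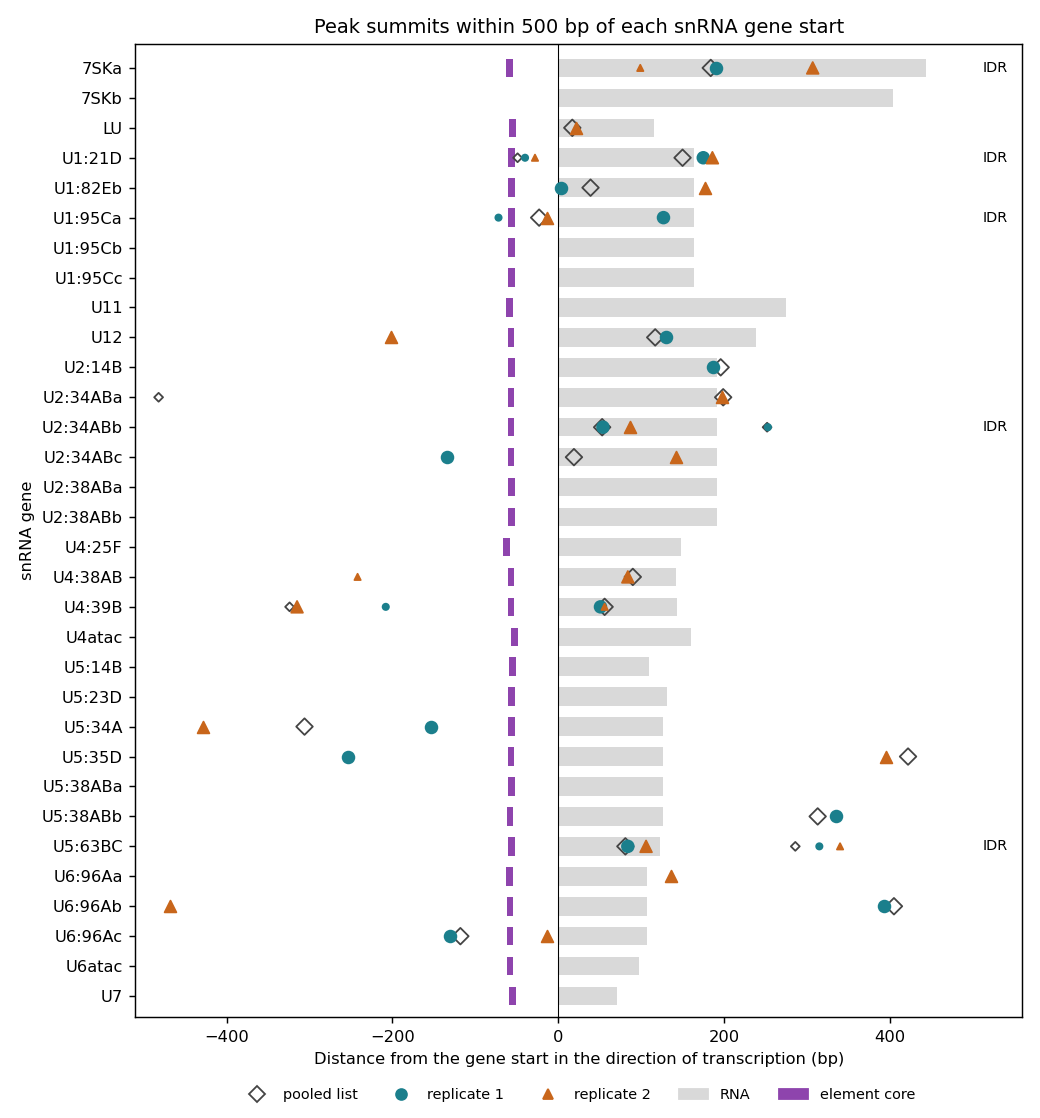
Summits within 500 bp of each snRNA start in the pooled and replicate lists, by distance from the start in bp (positive in the direction of transcription), with large symbols for the strongest summit, small ones for weaker summits, grey bars for the RNA, purple marks for the PSE word, and IDR beside genes with an IDR peak. In the pooled list 15 of 18 strongest summits lie downstream of the start, while the PSE word keeps nearly the same place in 31 genes.

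The PSE word stood at a nearly fixed place whether or not a gene had a peak. Searched on the strand of the gene, one of AATTCCCA, AATTCTCA and GATTCCCA began 57 to 66 bp before the start in 31 of the 32 genes, with a median of 60 bp, and 7SKb was the exception. In the 75 bases before the start, AATTCCCA was found in 22 genes, AATTCTCA in 5 and GATTCCCA in 4 (U12, U5:34A, U5:35D and U6:96Aa). The 2 variants were added to the search after the sequences were seen. A match describes the letters and not a binding site.

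Between 70 and 41 bp before the start, on the gene's strand, AATTCCCA was present in 68.8% of the snRNA genes. It was present in 0.157% of 23584 promoters of the same length, which include those of the snRNA genes. NATTCNCA, a pattern that covers all 3 forms, was present in 96.9% and 0.971%. This pattern was drawn up from the members' own sequences, so its high share among them was fixed in advance. In the window from 250 bp before to 50 bp after the start, searched on both strands, AATTCCCA was present in 23 of 32 (71.9%) and in 1.74% of all promoters, and the shorter TTCCCA, which AATTCCCA contains, in 28 of 32 (87.5%) and 16.1%. A TATA word, either TATAAA or the word TATATA, between 40 and 11 bp before the start was found in 5 of the 6 polymerase III genes and 0 of the 26 polymerase II genes. 7SKb, placed with polymerase III by its name, again lacked it. This gene, which had no peak and differs from 7SKa over most of its sequence, carried neither the PSE word nor a TATA word at these places.

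Words known from other fly promoters were also searched. In the same window of 250 bp before to 50 bp after, on both strands, the DNA replication-related element TATCGATA was found in 0 of 32 members and 6.79% of all promoters, the E box CACGTG in 0 and 4.05%, and the motif 1 core GGTCACACT in 0 and 4.39%. With 32 genes, shares of this size in all promoters would give few members with a word. The GAGA word GAGAG was found in 9 of 32 (28.1%), beside 32.4% of all promoters. The TATA form TATAAA, anywhere in this window, was found in 15 of 32 (46.9%), beside 41.4%, and TTATATA in 3 of 32 (9.38%), beside 13.5%.

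All 5 IDR genes carried the word AATTCCCA, as did U1:82Eb, U1:95Cb, U1:95Cc, U2:34ABa and U2:34ABc among the sequences printed above. Its presence alone therefore did not mark a gene with an IDR peak. Of all 32 genes, 22 carried it. No gene with a variant only, or with neither, had an IDR peak, though some of them had a pooled peak. This difference was not tested. The IDR summit lay downstream of the first base of the word in all 5, by 37 bp at U1:95Ca, 114 bp at U2:34ABb, 141 bp at U5:63BC, 210 bp at U1:21D and 247 bp at 7SKa. The strongest summits of the replicates were themselves 140 bp apart at U1:95Ca and 117 bp apart at 7SKa. With summits placed this loosely, the values cannot tell whether the distance from the PSE is fixed.

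The snRNA genes lie in different surroundings, and the counts were split by them without a test. All 5 IDR peaks were at the 14 genes that start outside any other gene (35.7%), beside 11.2% of the 13084 genes located the same way. At the 16 genes that start in an intron of a coding gene there were 0, beside 6.54% of 2583 genes so located. In the pooled list 12 of the 14 (85.7%) had a peak, beside 41.2% of genes outside others, and 5 of the 16 (31.2%), beside 29.3% of intronic genes. In replicate 1 this was 11 of 14, beside 39.3%, and 3 of 16, beside 28.0%. In replicate 2 it was 11 of 14, beside 43.2%, and 5 of 16, beside 28.7%. Genes as a whole thus also had fewer peaks when their start was intronic. The other 2 genes, U2:34ABc and U4:25F, start in exons of non-coding RNA genes. The largest intronic group is the set of 5 genes at 38AB on 2L inside an intron of sick, where the nearest IDR summit was 14504 bp away or more.

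Few snRNA genes lie close to a coding promoter: 3 members lie within 500 bp of a coding start, 5 within 1000 bp, and 12 farther than 5000 bp from one. Of the 12 members with no start of another gene within 1000 bp, 2 (16.7%) had an IDR peak, U1:95Ca and U5:63BC, beside 6.50% of 9059 genes that are isolated in the same way. This comparison was chosen after the data were seen. The median distance from an snRNA start to the nearest IDR summit was 9675 bp, beside 10210 bp over all genes, and 15 members had none within 10000 bp.

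**Figure D3:**
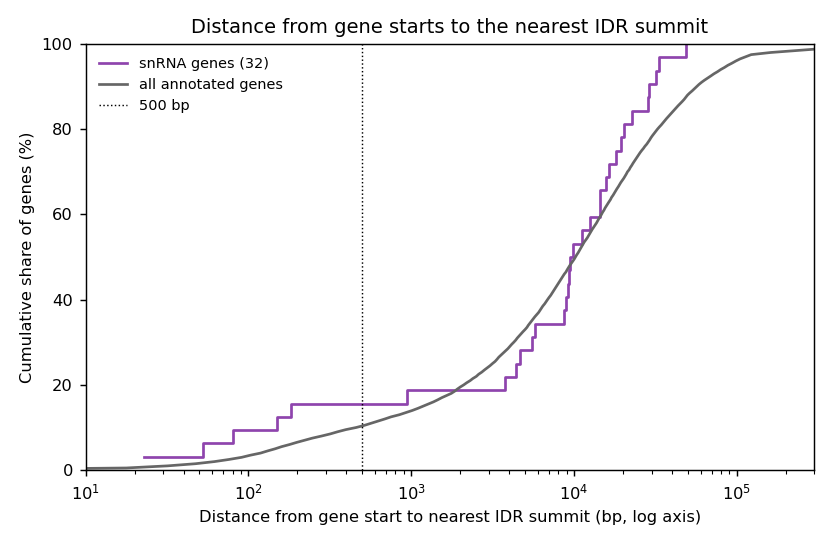
Distance in bp (log axis) from each snRNA start to the nearest IDR summit, as a cumulative share of genes, beside the same for all 18164 genes. The snRNA genes lie above the curve of all genes below 500 bp, where 5 of 32 are found, and their median of 9675 bp is close to that of all genes.

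The snRNA genes are repeated in the genome, and reads from identical copies cannot be assigned to one of them by sequence. The first 36 nt of the RNA occur more than once in the genome for 20 members and once for 12. An IDR peak was found at 4 of the 20 and 1 of the 12, and a pooled peak at 13 of the 20 and 5 of the 12, where 10.4% of all genes had an IDR peak and 39.0% a pooled one. The counts for the 12 genes whose first 36 nt are unique were near those shares. Farther along the RNA, U5:14B, U4:38AB and U4:39B among these 12 held repeated stretches. In replicate 1 the counts were 12 and 3, beside 37.2% of all genes, and in replicate 2 they were 12 and 5, beside 40.4%. The 3 of 12 in replicate 1 lay below the share over all genes. The RNAs of U1:21D, U1:95Ca and U2:34ABb held no 36-base stretch that occurs once, U5:63BC held 37.5% such stretches, and 7SKa 100%.

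The DNA around the start was mostly unique. In the window of 500 bp on each side, 82.2% to 99.4% of 36-base stretches occurred once for the genes with an IDR peak, and 46.2% to 100% for the others, with 3 genes under 50% (U2:34ABc, U2:38ABa and U2:38ABb). The 36 bases centred on the strongest summit occurred once for 4 of the 5 IDR peaks, U2:34ABb being the exception, and were repeated for 5 of the 18 pooled summits. The sources used here give neither the read length nor the handling of reads with several matches. The part of repeated sequence in the peak counts, and in the position and side of the summits, was not tested.

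**Figure D4:**
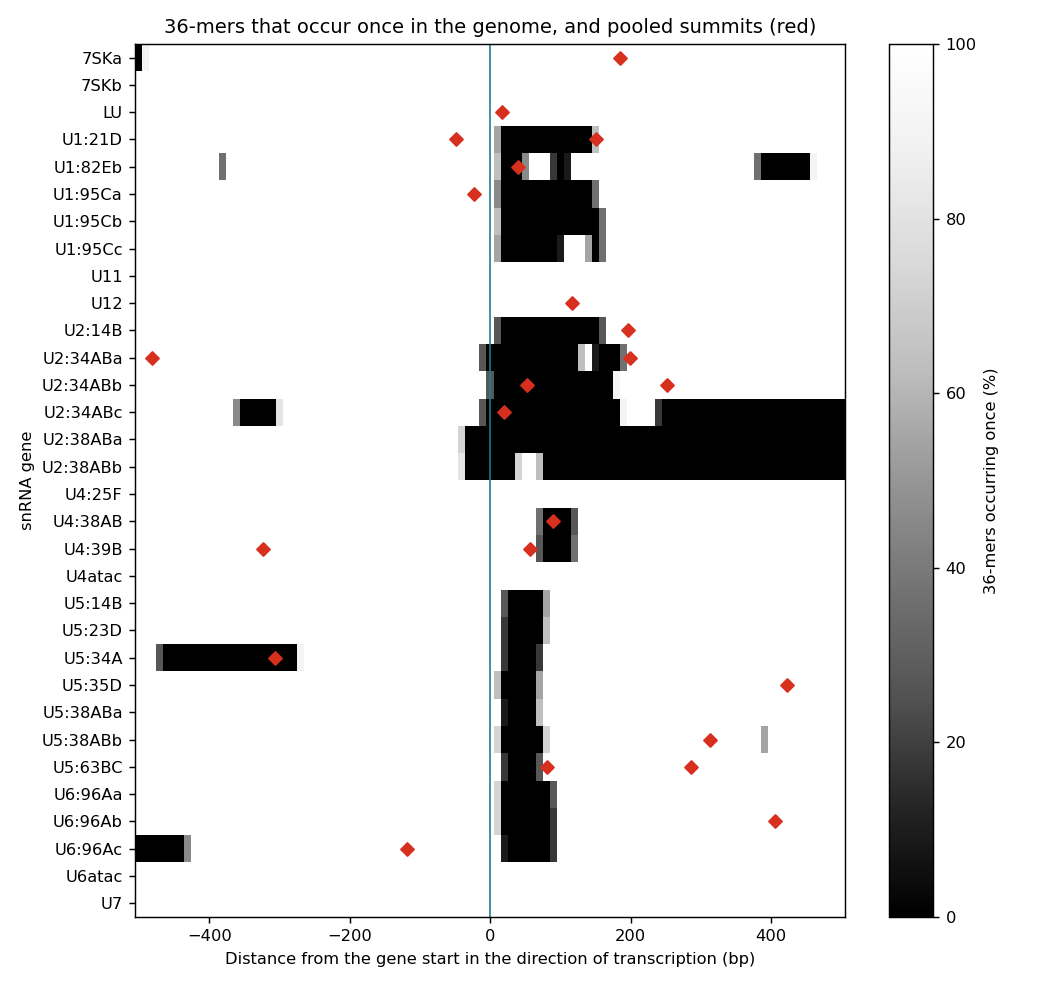
Share of 36-base stretches that occur once in the genome, in bins along 500 bp on each side of each snRNA start (white all unique, black none), with pooled summits as red points. The RNA-coding stretch of most U1, U2, U5 and U6 genes is largely repeated while most flanks are unique. The strongest pooled summits of U1:82Eb, U2:34ABb, U2:34ABc, U4:38AB and U5:34A fall in repeated sequence, and of these only U2:34ABb had an IDR peak.

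The protein-coding genes of snRNA transcription and snRNP assembly were counted from lists, with an IDR summit within 500 bp of any of a gene's starts as the rule. A peak was found at 7 of 56 genes (12.5%), beside 14.0% of all 13945 protein-coding genes. None of the 3 SNAPc genes, whose products bind the PSE, had an IDR peak, although Pbp49 had a pooled signal value of 115.2 and Pbp95 one of 59.15. Of the 4 polymerase III factors 2 had one, Bdp1 with a signal value of 530.6 and Brf with 364.8, both subunits of the initiation factor TFIIIB.

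Of the 14 genes of Integrator, the complex that cleaves the 3' end of polymerase II snRNA transcripts, 3 had an IDR peak: IntS9, part of its cleavage module, with a signal value of 272.6, IntS6 with 244, and omd with 228.6. The summit lay 80 bp from the nearest start of IntS9, 421 bp from that of IntS6 and 481 bp from that of omd. None of the 4 genes of the little elongation complex, which promotes transcription of snRNA genes, had one. Of the 5 genes of the 7SK particle and P-TEFb, bin3, which encodes the enzyme that caps 7SK, had a signal value of 523.

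Of the Sm ring genes, whose products encircle the snRNA, 0 of 6 had an IDR peak. Of the genes for snRNP assembly and transport, such as Smn, 0 of 12 had one. Of the 8 genes in a further list of snRNP and related proteins, such as snf and Slbp, 1 had an IDR peak. It was snRNP-U1-C, which encodes a U1 protein that stabilises pairing with the 5' splice site. Its signal value was 239.3, with the summit 154 bp from its start. The IDR signal values at all 7 of these coding genes, from 228.6 to 530.6, were above the highest at an snRNA gene, 189.1. The rules differ, since coding genes were scored at any of their starts and snRNA genes at the gene start.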

How the data were processed

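The peak lists of CG2875-GFP embryos (1 group, 2 biological replicates) on dm6 were used. The lists on dm3 were not used here. The authors deposited for each peak an interval, a signal value, a −log10 q value and a summit offset. The −log10 q deposited by the authors was tied at 3.956 for all 4278 IDR peaks, so peaks were ranked by signal value. The sources used here name no aligner, peak caller, software version or cutoff for the IDR. Read totals are unknown, so no interval for counting error can be given.

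Gene starts came from Ensembl release 115 on X, 2L, 2R, 3L, 3R and 4, and sequence from the RefSeq Release 6 genome. A gene's score was the strongest peak with a summit within 500 bp of its start, and coordinates are 1-based. All 32 snRNA genes were accounted for, and those with an IDR or pooled peak were named with their values. From the pathway lists up to 4 genes with an IDR peak were named for each list. Ell and Gem4a were matched to Su(Tpl) and Glos by a unique synonym, and SmG, which matched more than 1 gene, was left out. The shares over all genes are descriptions with no test, since there was no second condition and genes are not replicates. The members and lists were chosen with earlier results of these data known. The split by location of the start and the words AATTCTCA, AATTCNCA and NATTCNCA were chosen after the data and sequences were seen. RNA identity came from global alignments of each pair within a class. Alternatives were leaving out each replicate, windows of 250 and 1000 bp, the stronger 50% of peaks, the full pooled list, interval overlap, the nearest summit and members with unique sequence. The scoring was tested on simulated data. The software was biopython 1.88, matplotlib 3.10.9, numpy 2.4.6, pandas 2.3.3 and Python 3.11.15.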

Additional observations from a re-analysis of the deposited data

How the results depend on the processing

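The count of 5 snRNA genes with an IDR peak was 5 within 250 bp, 5 with interval overlap, 5 with no nearer start of any gene or of a coding gene, and 6 within 1000 bp. It ranged from 5 to 6 when either replicate was left out and the strongest 4278 peaks of the other were used. It fell to 1 with the stronger 50% of the IDR peaks, and rose to 18 with the full pooled list. Restricted to the 12 members whose first 36 nt are unique it was 1, and restricted to the 12 members with no other start within 1000 bp, an alternative chosen after the data were seen, it was 2. These 2 values count over fewer genes. The median pooled rank of 9236 was 10359.5 with the nearest summit in place of the strongest, and ranged from 7498 to 12142 over the single replicates. The median summit of 85.5 bp downstream was 68.5 bp with the nearest summit, and ranged from 84 to 87 bp over the single replicates. Among the IDR members, the direction changed for U1:21D with the nearest pooled summit (an offset of -49 bp). It also changed for U1:95Ca between the single replicates (-13 bp without replicate 1 and 127 bp without replicate 2). The cause was not tested. Over the ranks and offsets of the single IDR members, 16 of 30 alternative values differed from the reported one by less than the SD of that gene's 2 replicate values, 12 by more, and these 2 changed sign. That SD differs between genes, so the counts do not measure closeness. Most of the alternative values are also the replicate values from which the SD was made. For every IDR member but U1:21D the nearest pooled summit was also the strongest, so that value could not differ. With 2 replicates and no read depths, peaks below the relaxed lists were not detectable.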

Other observations

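Outside the snRNA genes, 29 other gene starts carried AATTCCCA or AATTCTCA on their own strand between 70 and 41 bp upstream, 17 of them starts of non-coding genes. An IDR peak lay within 500 bp of 7 of the 29 and a pooled peak within 500 bp of 12, where 10.4% and 39.0% of all genes had one. Those shares are over genes, each by its gene start, and no share over all promoters searched is given. The pooled count was near its share over all genes. The strongest were at PTPMT1, with an IDR signal value of 705.1, l(3)L1231 with 438.8 and lncRNA:CR34335 with 419.7, followed by Gadd45 with 198.1, asRNA:CR44160 with 180, CG1774 with 160.4 and asRNA:CR45925 with 156.8. The peak at asRNA:CR44160 had no counterpart within 500 bp in replicate 2. Also among the 29, tRNA:SeC-TCA-1-1, the selenocysteine tRNA gene, had a peak in replicate 2 only, with a signal value of 23.23, and snoRNA:U3:9B had 65.23 in the pooled list, 21.42 in replicate 1 and 42.89 in replicate 2.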
